A study of Rattus norvegicus with 28 samples.

Results

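The respiratory chain genes of the rat striatum were followed across 4 groups of libraries, as 108 of the 39538 rows of the gene table. A row counted as a member when it was annotated as protein coding and its name began with Nduf, Sdha, Sdhb, Sdhc, Sdhd, Uqcr, Cox4 to Cox8 or Atp5, or when it was a protein-coding row of the mitochondrial chromosome. The nuclear genome gave 95 members and the mitochondrial genome 13, and the genomes are reported apart. The rule reads names and annotation and uses no measured value.

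The respiratory chain carries electrons from NADH and succinate to oxygen through complexes I to IV of the inner mitochondrial membrane, and the proton gradient this builds drives ATP synthase, complex V. Complex II is encoded wholly in the nucleus, whereas every other complex joins nuclear subunits to core subunits encoded in mitochondrial DNA, so that transcription in separate compartments must supply each of them. Neurons of the striatum rely heavily on this pathway, and block of complex II by malonate damages the striatum in rats. Of the nuclear members, 36 were named as subunits of complex I and 7 as its assembly factors (Ndufaf genes), 4 were subunits and 3 assembly factors of complex II, 8 belonged to complex III, 20 to complex IV, 15 to complex V, and 2 (Atp5sl and Atp5s, now Dmac2 and Dmac2l) fell outside these groups. Ndufa4 and Ndufa4l2 were placed with complex IV, where the Ndufa4 protein is now known to belong. The mitochondrial members were 7 genes of complex I (ND1 to ND6 and ND4L), CYTB of complex III, COX1, COX2 and COX3 of complex IV, and ATP6 and ATP8 of complex V.

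Messenger RNA of the striatum of male rats was sequenced in 28 libraries, which the labels number individually without saying more about separate animals, so the p-values below measure the spread between libraries. The transgenic (TG) rats carry {delta}ETorA, as the labels write it, a form of torsinA, the protein altered in DYT-TOR1A dystonia, and the wild-type (wt) rats are their controls. Rats of either genotype had a right-sided crush of the sciatic nerve held for 30 seconds or were left naive, and all groups bear the label of 12 weeks after injury. The groups were TG crush (6 libraries), TG naive (8), wt crush (6) and wt naive (8), and no source used here gives the promoter that drives the transgene, the age of the rats or the run of each library.

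Levels are given in RPM, reads per 1000000 reads assigned to genes, from 29151455 to 38407359 reads a library, so that 3 reads, the most a count of 0 allows, came to 0.103 RPM in the shallowest library. The human TOR1A transcript checked the genotype labels: it lay between 102 and 139 RPM in TG crush, between 129 and 144 RPM in TG naive, at or below 0.447 RPM in wt crush and at or below 0.972 RPM in wt naive libraries. All 17 spiny projection neuron markers had reads in every library, and their summed level ran from 9336 to 16440 RPM in TG crush, 9265 to 15481 in TG naive, 14378 to 16567 in wt crush and 8226 to 16278 in wt naive libraries. The 5 cortical excitatory neuron markers summed to 5.40 to 73.7 RPM in TG crush, 3.60 to 67.8 in TG naive, 3.07 to 7.24 in wt crush and 5.18 to 66.7 in wt naive libraries. Over 20 RPM of Slc17a7, the vesicular glutamate transporter of cortical neurons, was found in 5 libraries (1 TG crush, 1 TG naive, 3 wt naive and 0 wt crush), and results that rest on them are also given without them. In bulk tissue, fewer cells of a type and less RNA per cell cannot be told apart.

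The promoters below belong to nuclear members called between crush and naive rats. They were picked so that each shows a different element and do not represent the called members. They are RefSeq promoters of the GRCr8 build, 300 bases from 250 before to 50 after the annotated start, written 5′ to 3′ along the gene's strand. Ndufs5 (complex I, chr5:141264353-141264652, minus strand) holds the element of nuclear respiratory factor 1 (in capitals):
Ndufs5: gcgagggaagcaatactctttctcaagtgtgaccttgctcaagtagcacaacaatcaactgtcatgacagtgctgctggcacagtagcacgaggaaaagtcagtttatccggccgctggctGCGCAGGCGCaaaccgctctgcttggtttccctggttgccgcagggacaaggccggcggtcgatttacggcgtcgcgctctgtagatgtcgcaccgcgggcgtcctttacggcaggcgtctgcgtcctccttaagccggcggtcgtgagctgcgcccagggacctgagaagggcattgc
Uqcrh (complex III, chr5:134790833-134791132, minus strand) holds the element bound by GABPA, also called nuclear respiratory factor 2, and other ETS factors (CCGGAAG), here on the opposite strand and so read as its reverse complement in capitals:
Uqcrh: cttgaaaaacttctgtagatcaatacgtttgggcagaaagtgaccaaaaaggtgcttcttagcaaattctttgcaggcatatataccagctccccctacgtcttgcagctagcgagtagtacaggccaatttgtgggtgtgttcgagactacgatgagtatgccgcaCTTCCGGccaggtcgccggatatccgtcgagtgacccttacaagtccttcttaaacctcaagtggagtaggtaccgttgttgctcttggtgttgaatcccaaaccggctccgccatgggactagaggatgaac
Ndufs4 (complex I, chr2:47794865-47795164, minus strand) holds the YY1 element (AAGATGGC, in capitals) just past the start:
Ndufs4: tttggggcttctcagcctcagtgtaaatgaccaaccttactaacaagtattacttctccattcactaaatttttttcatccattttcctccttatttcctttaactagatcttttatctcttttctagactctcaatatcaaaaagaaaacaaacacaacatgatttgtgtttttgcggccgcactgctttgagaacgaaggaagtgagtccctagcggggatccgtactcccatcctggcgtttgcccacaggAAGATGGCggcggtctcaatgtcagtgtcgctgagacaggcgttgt
Uqcr10 (complex III, chr14:83791865-83792164, minus strand) holds the letters of a TATA box (TATAAA, in capitals), with the first base at -55 from the start:
Uqcr10: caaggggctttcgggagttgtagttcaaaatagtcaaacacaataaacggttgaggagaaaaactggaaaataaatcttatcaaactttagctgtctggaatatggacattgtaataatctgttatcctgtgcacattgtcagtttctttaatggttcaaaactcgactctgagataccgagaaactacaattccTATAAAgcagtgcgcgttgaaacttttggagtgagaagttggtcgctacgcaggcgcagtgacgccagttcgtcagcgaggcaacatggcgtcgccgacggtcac

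Promoters of 82 of the 95 nuclear members were matched by their current RefSeq symbol and searched on both strands, as were those of all 18999 protein-coding genes in the table. The nuclear respiratory factor 1 element was found in 17 of the 82 member promoters (20.7%) and in 6.08% of all promoters. The GABPA element was found in 22 (26.8%) against 11.2%, and the YY1 element in 15 (18.3%) against 3.92%. The general promoter elements lay closer to the background: GGGCGG, the Sp1 box, was found in 46.3% of member and 43.1% of all promoters, CCAAT in 32.9% and 38.4%, and TATAAA in 7.32% and 13.1%. Promoters were matched for 9 of the 12 members called below, and among these the element of nuclear respiratory factor 1 was found in 1, that of GABPA in 2 and that of YY1 in 2. A match is a run of letters in this window and says nothing of binding.

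The mitochondrial genes have no introns, so their reads are given per kilobase of gene (RPKM). RPKM does not rank their transcripts here: ATP8 and ND4L lie on shared transcripts with ATP6 and ND4. Their TG crush medians were 2116 and 2275 RPKM, against 23452 and 4634 RPKM for those partners. COX1, the catalytic core of cytochrome c oxidase, and ATP6, the proton-channel subunit of ATP synthase, had the highest RPKM. Over the TG crush libraries these were 19605 to 33141 RPKM and 17378 to 32552 RPKM. COX3, COX2, CYTB, ND1 and ND2 followed, and ND4, ND5 and ND3 lay lower still. ND4L and ATP8, which lie on shared transcripts with ND4 and ATP6, had medians of 2275 and 2116 RPKM in TG crush, 1329 and 1353 in TG naive, 1360 and 1245 in wt crush and 1312 and 1184 in wt naive libraries. ND6, the only protein gene read from the other strand, had medians of 37.8 RPKM in TG crush, 37.8 in TG naive, 31.6 in wt crush and 34.0 in wt naive libraries. Over all 28 libraries the ranges of neighbours in this order overlapped except between ND2 and ND4 and above ND6. Within single groups a few narrower gaps were added, such as that between ATP6 (at least 19623 RPKM) and COX3 (at most 18150 RPKM) in wt naive libraries. Short overlaps of the annotated genes limit the lowest of these values: 43 of the 204 bases of ATP8 lie within ATP6, 7 bases are shared by ND4L and ND4, and 23 by ND5 and ND6 on opposite strands, and no source used here says whether reads were counted by strand.

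**Figure D1:**
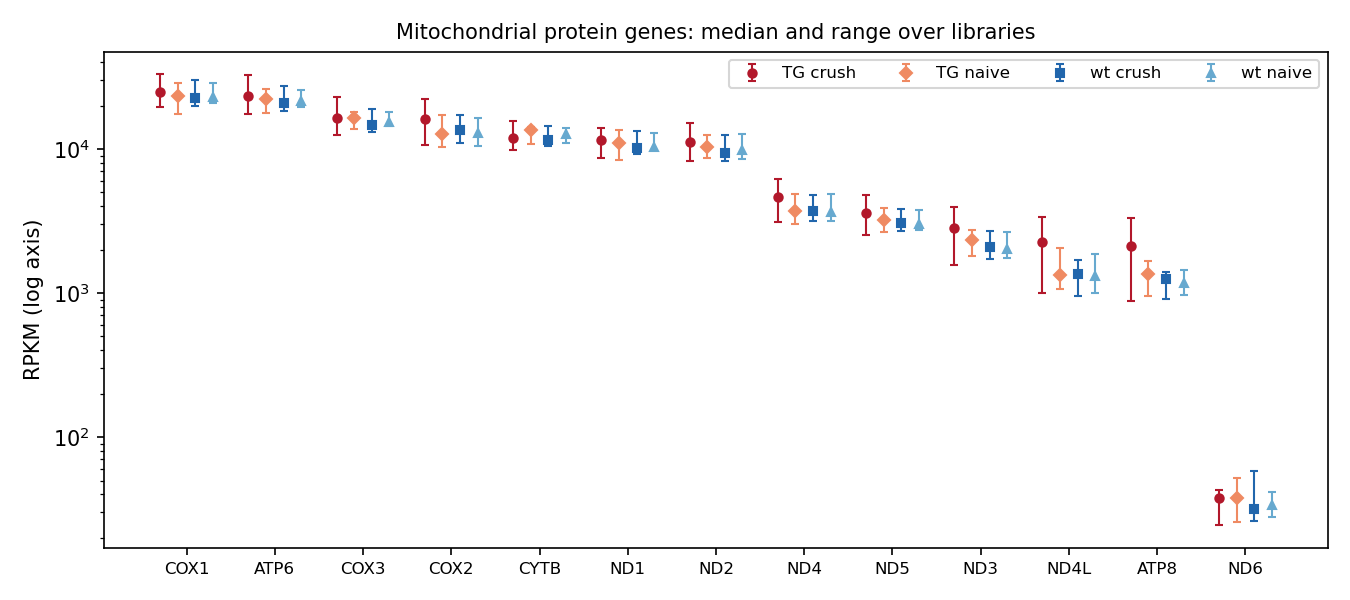
Level of the 13 mitochondrial protein genes in RPKM on a log axis, with the median (marker) and the range (bar) over the 6 TG crush, 8 TG naive, 6 wt crush and 8 wt naive libraries. ND6 lies far below the other 12 genes, and the TG crush bars are the longest for ND4L and ATP8.

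Together the 13 mitochondrial genes took 9.73% to 17.4% of all reads in TG crush libraries (median 12.8%), 9.66% to 14.4% in TG naive (median 12.2%), 10.1% to 14.9% in wt crush (median 11.4%) and 10.8% to 14.3% in wt naive libraries (median 11.8%). The 95 nuclear members took 0.852% to 0.973% in TG crush (median 0.903%), 0.887% to 0.974% in TG naive (median 0.955%), 0.912% to 0.964% in wt crush (median 0.935%) and 0.918% to 0.987% in wt naive libraries (median 0.946%). The groups overlapped in both quantities. The TG crush library 223 held the highest mitochondrial share and the lowest nuclear share of all 28, together with the lowest spiny marker sum of its group, 9336 RPM. It also had the highest sums of its group for markers of oligodendrocytes (35142 RPM, against 17790 to 23875 in the other TG crush libraries), astrocytes (6258 RPM, against 4211 to 5455) and microglia (517 RPM, against 342 to 474), and the part of these cells in its shares was not tested. Mitochondrial complex I genes held 9.71 to 20.3 times the reads of nuclear complex I genes in TG crush, 10.1 to 16.2 times in TG naive, 10.6 to 16.0 times in wt crush and 10.6 to 15.8 times in wt naive libraries. For complex IV the ratio had a median of 34.0 in TG crush, 28.1 in TG naive, 29.4 in wt crush and 29.2 in wt naive libraries, and the ranges overlapped in every pair of groups. These ratios move with the mitochondrial share, and reads are not corrected for length here.

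**Figure D2:**
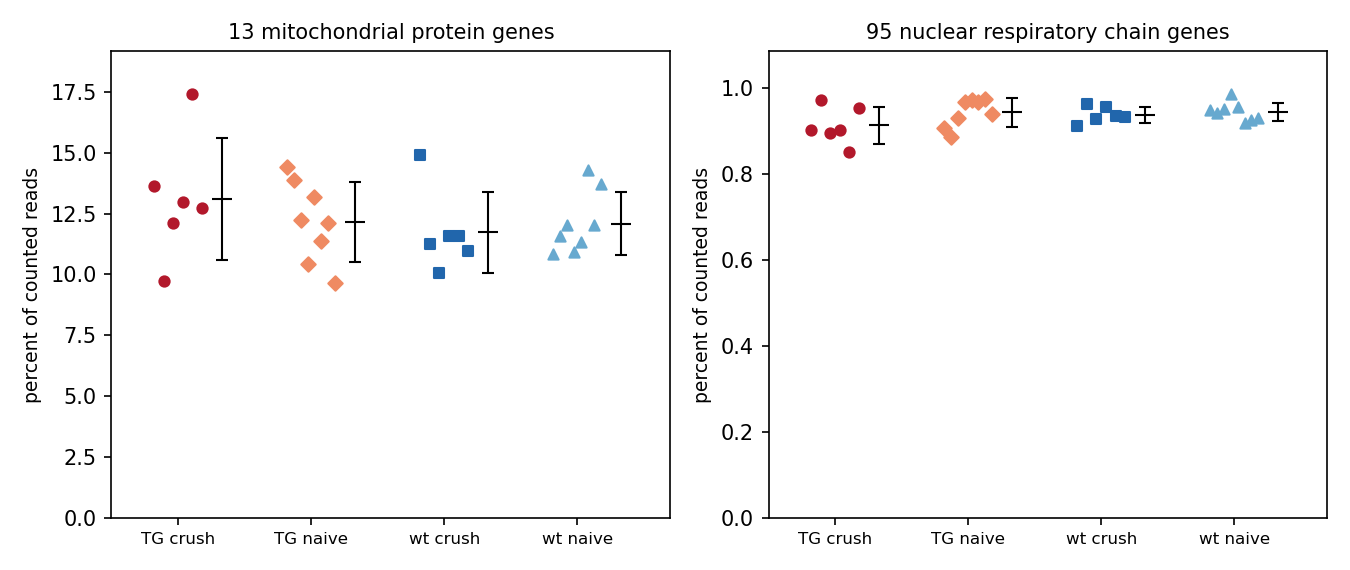
Share of counted reads, in percent, from the 13 mitochondrial (left) and the 95 nuclear members (right) in each library, with the mean and SD of each group beside the points. The TG crush library at 17.4% on the left is the one at 0.852% on the right.

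TG rats were tested against wt rats within the naive arm, within the crush arm and as the average of the arms, by 1 limma fit of log2 (RPM + 0.5) over the 18222 rows that reached 0.5 RPM in at least 6 libraries, with p-values adjusted over all rows (Benjamini-Hochberg) and a call at an adjusted p under 0.05. The fit held 91 of the nuclear and all 13 mitochondrial members; Cox6a2, Cox7b2 and Cox8b were too low and Cox8c had no read. No member was called between TG and wt rats in naive rats, where 0.0329% of all rows were called, in crush rats (0.00549% of all rows) or averaged over arms (0.0384%), and at an unadjusted p under 0.05 there were 4, 4 and 5 nuclear members (4.40%, 4.40% and 5.49% of the 91, against 4.98%, 8.06% and 5.09% of all rows). Fits on whole reads with limma-voom called none either. The log2 changes of the 91 nuclear members ran from -0.12 to 0.13 in naive rats with a median of 0.01, and from -0.12 to 0.14 in crush rats with a median of -0.03. The median over all tested rows was -0.01 in naive and 0.00 in crush rats.

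In naive rats the nuclear member of lowest p was Ndufa9, an accessory subunit near the quinone site of complex I, with 72.1, 74.5 and 75.9 RPM (lowest, median and highest) in TG naive and 76.9, 79.7 and 85.3 RPM in wt naive libraries. The groups did not overlap, and the log2 change of -0.10 ± 0.036 (SE) had an adjusted p of 0.776. Ndufb5, Uqcrfs1 (the Rieske iron-sulfur protein), Uqcr10 and Ndufaf2 came next, with adjusted p-values from 0.946 to 0.999. In crush rats Ndufs5 had 29.3, 34.6 and 35.7 RPM in TG crush and 34.7, 36.8 and 40.0 RPM in wt crush libraries, and Ndufs8, an iron-sulfur subunit of complex I, had 47.7, 54.8 and 57.1 RPM in TG crush and 57.4, 58.1 and 60.8 RPM in wt crush libraries. The groups overlapped for Ndufs5 and lay side by side without overlap for Ndufs8, each with a log2 change of -0.12 and an adjusted p of 0.606. Sdha, the flavoprotein of complex II, had 216, 241 and 273 RPM in TG crush and 243, 259 and 270 RPM in wt crush libraries, which overlapped (log2 change -0.09 ± 0.046, adjusted p 0.62). Averaged over arms, Atp5s, Ndufa9, Atp5a1, Sdha and Ndufc2 had the lowest p-values of the nuclear members, all with an adjusted p of 0.956.

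In TG rats 5 nuclear members were called between crush and naive, all lower in TG crush than in TG naive rats: Uqcr10, Ndufaf2, Ndufa8, Ndufs5 and Atp5j2. They made up 5.49% of the 91 tested members, against 3.08% of all rows called (2% called lower), and the median log2 change was -0.06 over the members and -0.01 over all rows. Their levels fell by 10.7% to 20% on the log2 (RPM + 0.5) scale.

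Uqcr10 (chr14:84935480-84937741 in Rnor_6.0, the build of the table), a small subunit of complex III, had 51.5, 54.8 and 61.6 RPM in TG crush and 59.8, 63.9 and 67.1 RPM in TG naive libraries. Only the TG crush library 226 reached into the TG naive range. It fell by 12.6% (log2 change -0.19 ± 0.041 SE, adjusted p 0.0105). Ndufaf2 (chr2:39322145-39434535), a late assembly factor of complex I, had 6.04, 6.69 and 7.36 RPM in TG crush and 6.78, 8.63 and 9.94 RPM in TG naive libraries, which overlapped in part. It fell by 20% (log2 change -0.32 ± 0.076, adjusted p 0.0174).

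Ndufa8 (chr3:15362888-15379386), an accessory subunit on the intermembrane-space side of complex I, had 123, 140 and 155 RPM in TG crush and 138, 169 and 175 RPM in TG naive libraries, with overlap. It fell by 14.3% (log2 change -0.22 ± 0.055, adjusted p 0.0237). Ndufs5 (chr5:141390577-141405507), another subunit of that side, had 29.3, 34.6 and 35.7 RPM in TG crush and 36.9, 37.9 and 41.2 RPM in TG naive libraries. Every TG crush library lay below every TG naive library, and the fall was 11.5% (log2 change -0.18 ± 0.046, adjusted p 0.0321). Atp5j2 (chr12:11191799-11198369), subunit f of the membrane part of ATP synthase, had 72.2, 77.5 and 85.4 RPM in TG crush and 78.6, 88.4 and 95.1 RPM in TG naive libraries, with overlap. It fell by 10.7% (log2 change -0.16 ± 0.046, adjusted p 0.0463).

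These calls depended on the fit. None of the 5 was called when the TG crush and TG naive libraries were fitted without the wt groups, where the log2 changes are the same by construction and calls over all rows fell to 0.675%. None was called without the 5 libraries of high Slc17a7, where their log2 changes ran from -0.30 to -0.14, the median over the 91 members was -0.05 and 0.993% of all rows were called. Scaling by non-mitochondrial reads gave 2 higher and 5 lower calls, where 2.90% of all rows were called. Median-of-ratios scaling gave 1 and 5 (3.20% of all rows) and quantile normalization 1 and 4 (3.25%).

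**Figure D3:**
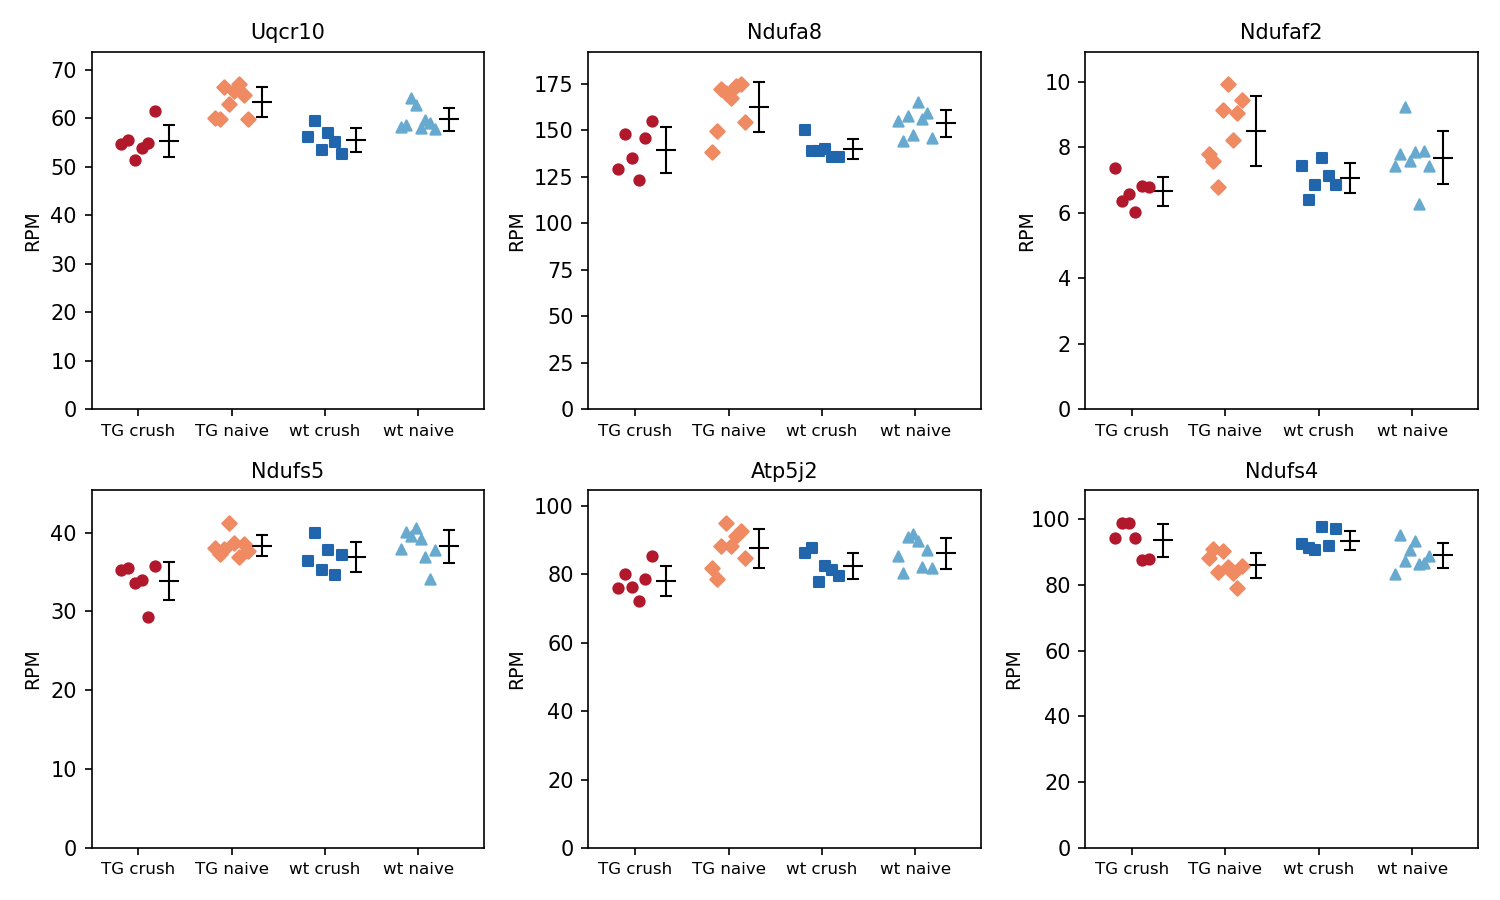
RPM in each library of the 5 nuclear members called lower in TG crush than in TG naive rats, and of Ndufs4, with the mean and SD of each group beside the points and axes starting at 0. The Ndufs5 points of TG crush lie below all those of TG naive, and the wt groups overlap in every panel.

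In wt rats no member was called between crush and naive, where 0.159% of all rows were called, and at an unadjusted p under 0.05 there were 7 nuclear members (7.69%, against 20.8% of all rows) and 0 mitochondrial ones. The lowest p-values belonged to Cox4i2 (log2 change -0.24 ± 0.089, adjusted p 0.162), Ndufs3 (0.15 ± 0.057, 0.17), Ndufa8 (-0.14 ± 0.055, 0.174), Uqcr10 (-0.10 ± 0.041, 0.175) and Cox7a2l (-0.12 ± 0.049, 0.184). With array weights, 2 of the 91 were called (Cox4i2 lower and Ndufs3 higher), where 7.88% of all rows were called. The genotypes were not shown to differ in their response: in the interaction of genotype and crush no member was called, where 0.00549% of all rows were called, the lowest adjusted p was 0.627 and 3 nuclear members (3.30%, against 7.49% of all rows) had an unadjusted p under 0.05. The lowest p-values there belonged to Uqcrfs1 (log2 difference 0.14), Ndufb10 (-0.17), Ndufs8 (-0.13), Ndufaf2 (-0.21) and Ndufs5 (-0.12).

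Averaged over the genotypes, crush rats differed from naive rats in 12 nuclear members, 11 lower and 1 higher. They made up 13.2% of the 91 tested members, against 11.4% of all rows called, and the 11 lower calls were 12.1% of members, against 8.42% of all rows, where 3.03% were called higher. The share of members called is thus near that of the table as a whole. Under median-of-ratios scaling the 12 calls were 5 higher and 7 lower, where 11.9% of all rows were called (1020 higher and 1146 lower). Under quantile normalization 13 calls were 3 higher and 10 lower, where 11.2% of all rows were called (942 higher and 1097 lower). Without the 5 libraries of high Slc17a7, 2 calls were left, Uqcr10 and Ndufa8, while calls over all rows fell to 3.05% and the median log2 change of the 91 members was -0.04, against -0.05 with all libraries. With the spiny marker level as a covariate there were 6 calls, while calls over all rows fell to 7.12%. Markers of other cells moved in the same contrast: 5 of 9 microglia, 4 of 10 endothelium and pericyte and 3 of 9 astrocyte markers were called lower in crush rats and none higher, with median log2 changes of -0.27, -0.15 and -0.19. The 17 spiny neuron markers had a median of 0.18 with none called, and 8 oligodendrocyte markers one of -0.04 with none called. Of 4 pituitary markers 2 were called higher in crush rats, with a median log2 change of 1.12. Summed microglia markers ran from 342 to 517 RPM in TG crush, 371 to 519 in TG naive, 360 to 423 in wt crush and 345 to 521 in wt naive libraries. The part of these cells in the members' changes was not tested beyond the spiny covariate.

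By complex, the averaged contrast called 5 of 36 complex I subunits, 1 of 7 complex I assembly factors, 0 of 4 complex II subunits, 2 of 8 complex III members, 2 of 16 tested complex IV members and 2 of 15 complex V members. The median log2 change was -0.05 in complex I, -0.01 in complex II, -0.05 in complex III, -0.08 in complex IV, -0.03 in complex V and 0.07 in the complex I assembly factors, against -0.02 over all rows. Of these medians only that of complex II changed sign with the scaling, to 0.01 under median-of-ratios scaling. Of the 91 members, 65 had a value below 0, and of all rows 57.2% did. In complex IV the values lay below 0 for 14 of 16 members in TG rats and for 14 of 16 in wt rats, where 53.7% and 58.8% of all rows lay below 0. Under the other scalings, by non-mitochondrial reads, median of ratios or quantiles, it was 13 to 15 of 16.

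**Figure D4:**
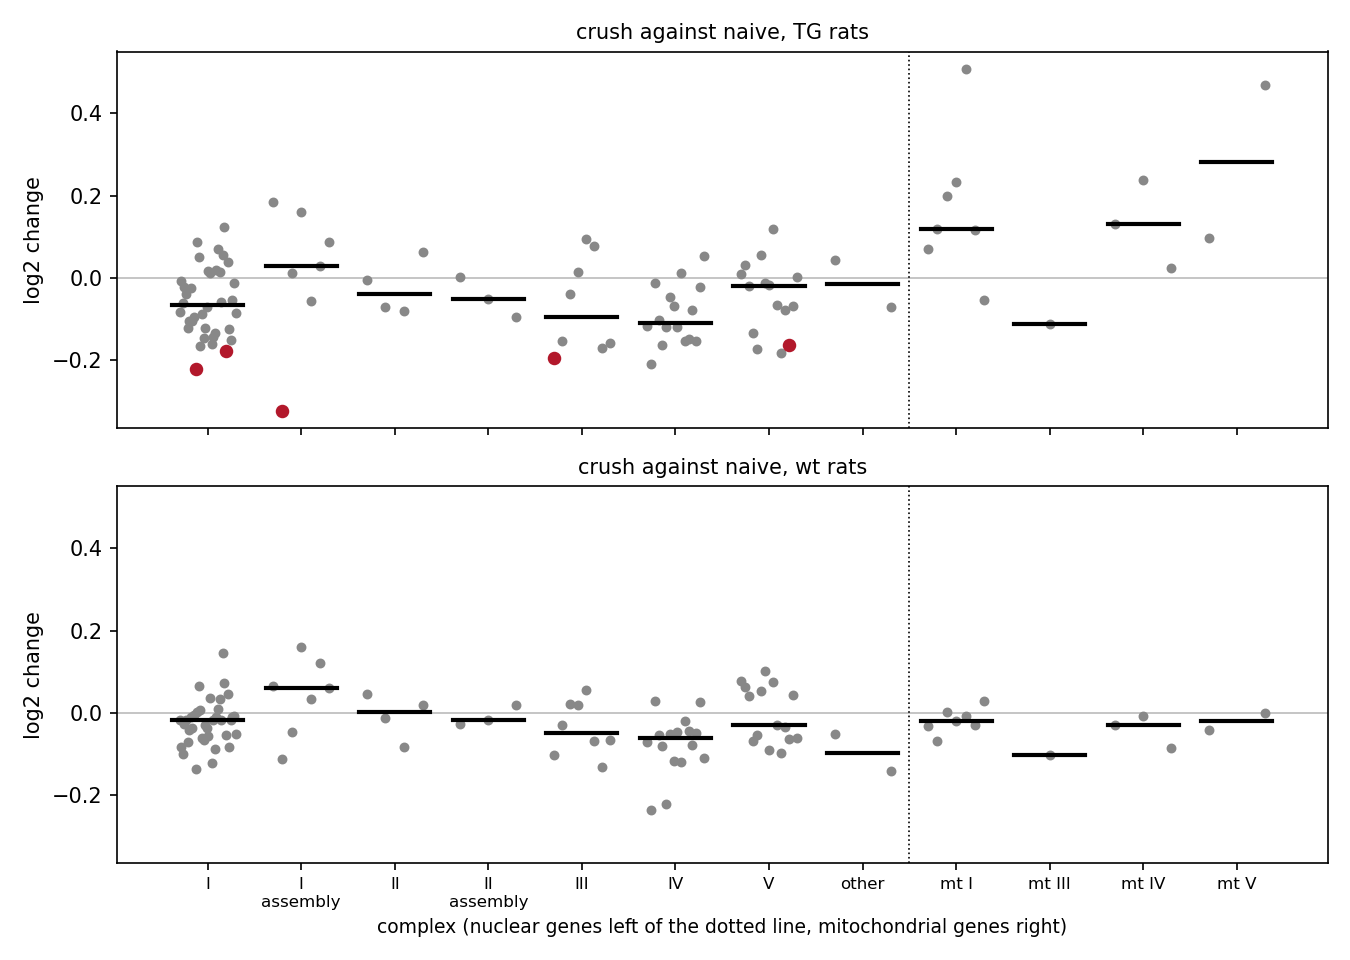
Log2 change of each tested member, crush against naive, in TG rats (top) and wt rats (bottom), grouped by complex, with the group median as a bar and called members in red. The 5 red points are below 0 and in TG rats, and the mitochondrial genes at the right spread highest in TG rats.

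In complex I the averaged contrast added Ndufb7 and Ndufb2, accessory subunits of the distal membrane arm, to Ndufa8 and Ndufs5. Ndufb7 had 54.3, 55.9 and 66.6 RPM in TG crush, 56.4, 66.0 and 72.8 RPM in TG naive, 54.3, 57.3 and 58.6 RPM in wt crush and 55.6, 61.8 and 70.1 RPM in wt naive libraries, and crush and naive overlapped in each genotype. It fell by 9.3% (log2 change -0.14 ± 0.043, adjusted p 0.0325). Ndufb2 fell by 7% (log2 change -0.10 ± 0.033, adjusted p 0.0373).

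In the averaged contrast Ndufs4 was the only member called higher. It encodes an accessory subunit of the NADH-oxidising module, whose loss in mice gives a Leigh-like brain disease. It had 87.5, 94.3 and 98.9 RPM in TG crush, 79.0, 85.6 and 91.0 RPM in TG naive, 90.7, 92.2 and 97.5 RPM in wt crush and 83.3, 88.0 and 95.1 RPM in wt naive libraries. Crush and naive overlapped in each genotype, and the averaged log2 change was 0.10 ± 0.028 (adjusted p 0.0246), a rise of 6.98%. Among the assembly factors Ndufaf2 fell by 14% averaged over genotypes (log2 change -0.22 ± 0.054, adjusted p 0.0116), while Ndufaf4 (0.16), Ndufaf1 (0.12), Ndufaf6 (0.07) and Ndufaf7 (0.07) had positive log2 changes that did not pass.

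In complex III Uqcrh, the hinge protein beside cytochrome c1, had 89.9, 93.1 and 101 RPM in TG crush, 92.1, 110 and 117 RPM in TG naive, 89.4, 92.7 and 102 RPM in wt crush and 94.9, 99.9 and 122 RPM in wt naive libraries, with overlap in each genotype. It fell by 9.95% (log2 change -0.15 ± 0.039, adjusted p 0.0154), and Uqcr10 fell by 9.77% (-0.15 ± 0.029, adjusted p 0.00265). The core proteins Uqcrc1 and Uqcrc2 had log2 changes of 0.02 and 0.08, which did not pass. In complex V Atp5j2 fell by 7.55% (log2 change -0.11 ± 0.033, adjusted p 0.0253) and Atp5d, the delta subunit of the rotating stalk, fell by 6.72% (-0.10 ± 0.032, adjusted p 0.0396). The catalytic subunits did not pass, with 0.04 for Atp5a1 (alpha) and 0.05 for Atp5b (beta).

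Several complex IV subunits have a common isoform and isoforms best known from other tissues. Cox4i2, the lung and hypoxia isoform of subunit IV, had 1.93, 2.16 and 2.57 RPM in TG crush, 2.08, 2.598 and 3.03 RPM in TG naive, 2.08, 2.37 and 2.75 RPM in wt crush and 2.11, 3.03 and 3.38 RPM in wt naive libraries. Crush and naive overlapped in each genotype, and it fell by 14.3% averaged over genotypes (log2 change -0.22 ± 0.063, adjusted p 0.0237), at 2410 reads over all 28 libraries. Its call was lost under quantile normalization, with the spiny covariate and without the 5 libraries of high Slc17a7. In the same contrast 4 of 10 endothelium and pericyte markers were called lower, and the part of these cells in its fall was not tested. The common isoform Cox4i1 had medians of 378 RPM in TG crush, 416 in TG naive, 392 in wt crush and 403 in wt naive libraries and did not pass (log2 change -0.09 ± 0.033, adjusted p 0.063). Cox6a1, the form of subunit VIa outside heart and muscle, had medians of 303 RPM in TG crush, 351 in TG naive, 318 in wt crush and 341 in wt naive libraries and fell by 8.1% (log2 change -0.12 ± 0.037, adjusted p 0.0346).

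The heart and muscle isoforms were at trace levels in all groups. Cox6a2 lay at or below 0.449 RPM in TG crush, 0.561 in TG naive, 0.447 in wt crush and 0.584 in wt naive libraries. Cox8b lay at or below 0.420 RPM in TG crush, 0.393 in TG naive, 0.268 in wt crush and 0.310 in wt naive libraries, and Cox7b2, a testis form, at or below 0.350 RPM in TG crush, 0.277 in TG naive, 0.241 in wt crush and 0.241 in wt naive libraries. Cox8c had 0 reads in every library, which allows up to 0.103 RPM in the shallowest. Cox7a1, the muscle form of subunit VIIa, averaged 1.85 ± 0.282 RPM in TG crush, 1.98 ± 0.360 in TG naive, 1.82 ± 0.227 in wt crush and 2.03 ± 0.387 in wt naive libraries (SD, n = 6, 8, 6 and 8), and Cox6b2, a testis form of subunit VIb, averaged 0.979 ± 0.318 RPM in TG crush, 1.09 ± 0.273 in TG naive, 0.943 ± 0.157 in wt crush and 1.25 ± 0.550 in wt naive libraries (SD, the same n). Ndufa4 had medians of 178 RPM in TG crush, 177 in TG naive, 179 in wt crush and 178 in wt naive libraries, and its paralog Ndufa4l2, a hypoxia-responsive gene, 6.64 RPM in TG crush, 5.87 in TG naive, 6.08 in wt crush and 6.75 in wt naive libraries. Cox7a2, Cox7b and Cox8a had log2 changes of -0.08, -0.10 and -0.10, and Cox7a2l, which joins complexes III and IV into supercomplexes, of -0.05, and none of them passed.

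None of the 13 mitochondrial genes was called in any of the 7 contrasts. In TG rats their median log2 change, crush against naive, was 0.12, with 11 of 13 values above 0, but 0.05 under quantile normalization, and in wt rats it was -0.03, with 3 of 13 above 0, but 0.00 under median-of-ratios scaling and 0.01 under quantile normalization. Between TG crush and wt crush all 13 values were above 0, with a median of 0.20. Scaled by non-mitochondrial reads the median was 0.22, and by median of ratios 0.20, with all 13 values above 0 in both. Quantile normalization left 5 of 13 below 0 and a median of 0.03. That method gives every library the same set of values, which holds genes of the highest levels nearly fixed, so it cannot decide here. Between TG naive and wt naive the median was 0.03. Without the 5 libraries of high Slc17a7 the median between TG naive and wt naive was 0.09, with all 13 values above 0. The genes share libraries and precursor transcripts and are not independent of each other. Without the TG crush library 223 the median in TG rats was 0.03, and that between TG crush and wt crush was 0.11. Leaving out the wt crush library 203 instead gave 0.26 between TG crush and wt crush, and -0.09 for crush against naive in wt rats.

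ATP8, ND4L and, by less, ND3 were high in 4 of the TG crush libraries. They are the 3 shortest of the 13 genes, and the part of gene length in this pattern was not tested. ATP8 had 181, 432 and 682 RPM in TG crush, 195, 276 and 343 RPM in TG naive, 185, 254 and 287 RPM in wt crush and 199, 242 and 293 RPM in wt naive libraries. ND4L had 296, 676 and 1001 RPM in TG crush, 317, 395 and 608 RPM in TG naive, 284, 404 and 501 RPM in wt crush and 296, 390 and 553 RPM in wt naive libraries. ND3 had 543, 992 and 1369 RPM in TG crush, 633, 813 and 961 RPM in TG naive, 600, 727 and 945 RPM in wt crush and 607, 699 and 920 RPM in wt naive libraries. The TG crush libraries 214, 220, 222 and 223, picked after their high values were seen, lay above every wt library in these 3 of the 13 genes. Their lowest ND4L value, 592 RPM, lay below the highest TG naive value, 608 RPM. Their lowest values of ATP8 and ND3, 392 and 980 RPM, lay above the highest TG naive values, 343 and 961 RPM. Libraries 219 and 226 were low, with 181 and 215 RPM of ATP8, 296 and 364 RPM of ND4L and 543 and 738 RPM of ND3. Crush against naive in TG rats, the log2 change was 0.47 ± 0.209 for ATP8 (adjusted p 0.207), 0.51 ± 0.209 for ND4L (adjusted p 0.168) and 0.20 ± 0.145 for ND3 (adjusted p 0.49). TG crush against wt crush, it was 0.61 ± 0.224 for ATP8 and 0.60 ± 0.223 for ND4L (adjusted p 0.606 each), and 0.30 ± 0.155 for ND3 (adjusted p 0.628). Without the TG crush library 219, ND4L was called higher in TG crush than in TG naive rats (0.70, adjusted p 0.0481), and ATP8 had 0.68.

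ATP8 also varied against ATP6, with which it shares a transcript. ATP8 reads were 1.37% to 3.75% of ATP6 reads in TG crush, 1.30% to 2.59% in TG naive, 1.49% to 2.10% in wt crush and 1.40% to 2.19% in wt naive libraries. ND4L reads were 6.73% to 13.04% of ND4 reads in TG crush, 6.21% to 9.45% in TG naive, 6.50% to 8.61% in wt crush and 6.79% to 8.20% in wt naive libraries. The highest values of both ratios came from the TG crush library 220, which is also the TG crush library of high Slc17a7 (63.3 RPM). The TG crush libraries 222 and 223, at 3.47 and 6.23 RPM of Slc17a7, had 2.90% and 3.08% for ATP8 and 11.5% and 11.8% for ND4L. Of other libraries of high Slc17a7, TG naive 190 had the highest ATP8 ratio of its group, 2.59%, and wt naive 202 had 1.48%. The part of cortical tissue in these ratios was not tested. CYTB went the other way without passing, with a log2 change of -0.11 ± 0.112 in TG and -0.10 ± 0.112 in wt rats.

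**Figure D5:**
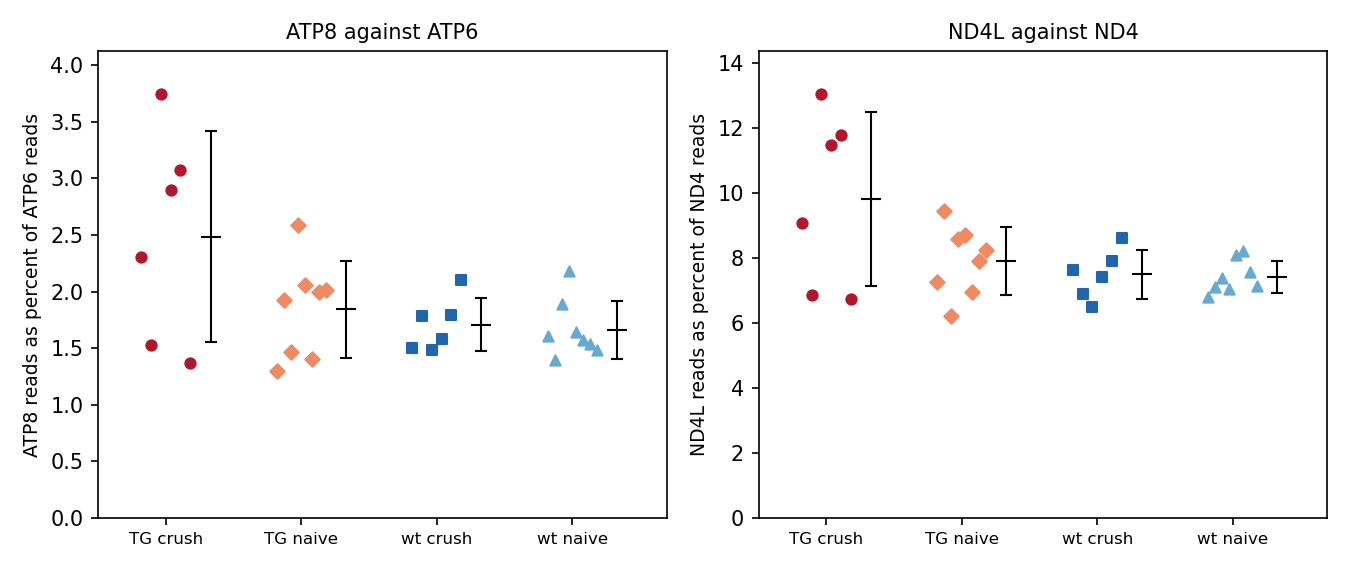
Reads of ATP8 as a percent of ATP6 reads (left) and of ND4L as a percent of ND4 reads (right) in each library, with the mean and SD of each group beside the points. In TG crush 4 libraries are high and 2 low in both panels, and the other groups lie within narrower ranges. The lowest of the 4, library 214, lies within the TG naive range in both panels.

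Within groups the nuclear members were steadier than the mitochondrial ones. The median within-group SD on the log2 scale was 0.092 over the 91 nuclear members and 0.220 over the 13 mitochondrial ones, against 0.162 over all tested rows and 0.122 over the 7913 rows with a mean of at least 20 RPM. The 79 nuclear members of that level had a median of 0.083. Ndufa6 and Cox6c were among the steadiest nuclear members, with SDs of 0.055 and 0.060, and the least steady were Cox6b2, Ndufa4l2 and Cox7a1, with 0.323, 0.211 and 0.202, all of low level. ATP8 and ND4L had the highest SDs of the mitochondrial genes, 0.418 and 0.417.

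Genes that serve the chain but lie outside the name rule were followed as 6 lists, with 117 of 121 entries matched to rows. No gene of any list was called between genotypes or between crush and naive wt rats. In TG rats, where 3.08% of all rows were called, 3 of 35 complex assembly factors were called: Cox17, a copper chaperone (-0.27, adjusted p 0.0264), and Uqcc2, which handles cytochrome b (-0.25, adjusted p 0.0371), fell with crush, and Cox15 of heme A synthesis (0.20, adjusted p 0.0363) rose. Of 13 nuclear regulators 1 was called, Gabpb1, the partner of GABPA, which rose (0.22, adjusted p 0.0332). Calls over all rows in TG rats fell to 0.675% with the compared groups alone and to 0.993% without the 5 libraries of high Slc17a7. Whether these list calls passed in those fits is not given here.

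Averaged over genotypes, where 11.4% of all rows were called, the shares called ran from 8% to 21.4% over the 6 lists, and nothing particular to a list is read from them. Crush rats had 2 higher and 3 lower of 35 assembly factors (14.3%), led by Ttc19 of complex III (0.25, adjusted p 0.0157), Uqcc2 (-0.18, adjusted p 0.0165) and Cox15 (0.14, adjusted p 0.02). The regulators Ppargc1a, the coactivator PGC-1alpha (0.17, adjusted p 0.0246), and Gabpb1 (0.13, adjusted p 0.0425) rose, as did Tfb1m (0.16, adjusted p 0.0293), an rRNA methyltransferase, and Mtpap (0.13, adjusted p 0.0478), the poly(A) polymerase, of 25 genes of mitochondrial transcription and RNA handling. Of 14 carriers and channels 3 rose: Mcu, the calcium uniporter (0.18, adjusted p 0.00934), Slc25a12, an aspartate-glutamate carrier (0.18, adjusted p 0.0152), and Vdac1 (0.14, adjusted p 0.0296). Of 14 chaperones and proteases Yme1l1 rose (0.20, adjusted p 0.0205) and Clpp fell (-0.17, adjusted p 0.0207). Of 9 further chain genes Atpif1, the inhibitor of ATP synthase, fell (-0.15, adjusted p 0.0249); RGD1309534 had been entered in that list by mistake and was not called. The medians of the lists ran from -0.03 to 0.06, and none of these calls of the averaged contrast was left without the 5 libraries of high Slc17a7, where 3.05% of all rows were called.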

How the data were processed

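RNA of 28 striatal libraries was made with a stranded mRNA kit and sequenced as single-end reads of 75 nt in 2 runs, per the labels' protocols. Reads were processed with STAR 2.6.1a, featureCounts of Subread 1.6.3, DESeq2 1.22.2 and Rnor_6.0, per the submitters' processing notes. The deposited table gives the authors' RPKM per gene, in which the length is the span of the gene with introns, as tested on every row. RPKM times length in kilobases gave RPM with the same sum in every library, in which 100% of values were whole reads within a tolerance of 0.02. The table's unit was recorded as other, because its decimal commas could not be read as numbers by the unit check.

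All libraries entered 1 fit of the 4 groups on log2 (RPM + 0.5) in limma 3.58.1 (R 4.3.3), with variances that follow the mean and 7 contrasts, and a call is a Benjamini-Hochberg adjusted p under 0.05. The fit was tested on simulated reads. Values after ± are SEs of the fit or, where marked, SDs over libraries, and the limit for a count of 0 covers counting error only. Levels of nuclear genes are not compared between genes, since transcript lengths were not used here. Members, lists and tests were chosen with earlier results of these data known. The text names all mitochondrial members, every called nuclear member (the 5 of lowest p where fewer than 5 were called), the complex IV isoforms, the 3 highest and 3 lowest SDs, and up to 3 called genes of each list. A gene that this rule names is not reported here. Uqcrc1, Uqcrc2, Atp5b, Ndufaf1, Ndufaf4, Ndufaf6 and Ndufaf7 were added after their values were seen. Promoters are RefSeq GRCr8 sequences. Alternatives were other pseudocounts, filters, scalings and weights, limma-voom, the compared groups alone, a spiny neuron covariate, and leaving out each library or the 5 with over 20 RPM of Slc17a7.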

Additional observations from a re-analysis of the deposited data

Results flagged for a closer look

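In 208 tests of 1 quantity in 1 group, over the 51 named genes and the shares of both genomes, 17 values, from 6 libraries, stood apart from the rest of their group by Dixon's criterion, which flags about 1 in 20 groups by chance. The wt crush library 203 accounts for 10 of the 17 values. It held 14.9% of its reads in mitochondrial protein genes, against 10.1% to 11.6% in the other wt crush libraries. The same library was high in ND1 (12806 RPM), ND2 (13102), COX1 (46232), ATP6 (18522), COX3 (14835), ND5 (6977) and CYTB (16614), and among nuclear members high in Ndufa8 (150 RPM) and low in Atp5a1 (532 RPM). Genes of the mitochondrial genome share this library, so their 7 flags and that of their summed share are not separate observations.

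The TG crush library 223 was low in Ndufs5 (29.3 RPM) and in Ndufs8 (47.7 RPM). The TG crush library 220 was high in Atp5s (11.6 RPM) and 226 in Atp5d (154 RPM). The TG naive library 190, one of those with over 20 RPM of Slc17a7, was high in Ndufs5 (41.2 RPM) and in Cox6b2 (1.71 RPM). The wt naive library 197, another of those, was high in Uqcrh (122 RPM).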

How the results depend on the processing

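No called change was reversed in any alternative. Counts of called mitochondrial members stayed at 0 in every alternative but 1, and counts of called members between genotypes and in the interaction at 0 in all. Between crush and naive TG rats, 5 nuclear members were called, and the count was 21 (3 higher, 18 lower) with array weights, 0 with the compared groups alone and 0 without the 5 libraries of high Slc17a7. Leaving out 1 library gave 1 to 16: 3 without TG crush 214, 2 without 220, 1 without 222, 9 without 223, 14 without 226, and 9 without TG naive 187, 16 without 188, 3 without 190, 3 without 191 and 2 without 193. Mitochondrial calls there ranged from 0 to 1, the 1 being ND4L without TG crush 219. Averaged over genotypes, 12 nuclear members were called, and the count was 34 (9 higher, 25 lower) with array weights, 6 (1 higher, 5 lower) with the spiny neuron covariate and 2 without the libraries of high Slc17a7. Leaving out 1 library gave 6 to 21: 7 without TG crush 220, 6 without 222, 21 without 226 and 21 without TG naive 188. In wt rats array weights gave 2. Uqcr10 and Ndufa8 passed in the averaged contrast under every alternative run. Of all rows, array weights called 9.62% in TG rats and 25.1% averaged over genotypes. The causes of these moves were not tested, and the shares of all rows called without each single library are not given here. Limma-voom called 5 and 12 nuclear members, where 3.11% and 11.4% of all rows were called. No paired analysis was possible because the groups share no replicate number.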

Other observations

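Several members are nearly equal in reads to another row or share a name with one. Whether reads of these rows can be told apart was not tested, and their values are uncertain. Atp5f1 and LOC100911417 differed by at most 8 reads in any library, at means of 72.1 RPM each, and Ndufa1 and LOC108348144 by at most 4 reads, at 25.1 RPM each, although the rows of each pair lie at different places. Ndufa10l1, a row of 1434 bases, had 71.2% of the reads of Ndufa10 in the median library, and Cox7a2l2, of 443 bases, had 216% of those of Cox7a2. The row named Ndufs6 spans 415 bases and is now called Ndufs6-ps1 in RefSeq. Its reads came to 30.4% of those of LOC679739, the row that RefSeq now names Ndufs6.

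Chain subunits under other names fell outside the name rule. LOC688869, now Cox6b1, averaged 58.1 ± 4.16 RPM in TG crush, 64.1 ± 5.86 in TG naive, 60.2 ± 2.01 in wt crush and 63.6 ± 3.18 in wt naive libraries (SD, n = 6, 8, 6 and 8), and did not pass averaged over genotypes (log2 change -0.11 ± 0.038 in crush against naive rats, adjusted p 0.0587 in limma). LOC100911483, now Ndufa13, averaged 51.5 ± 3.55 RPM in TG crush, 59.2 ± 6.62 in TG naive, 54.0 ± 1.46 in wt crush and 58.0 ± 5.88 in wt naive libraries and passed (-0.15 ± 0.048, adjusted p 0.0466 in limma). These rows were chosen after their values were seen.

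Mitochondrial rRNA took 0.650% to 1.06% of reads in TG crush, 0.809% to 1.06% in TG naive, 0.784% to 1.01% in wt crush and 0.676% to 1.01% in wt naive libraries, and the groups overlapped. ND6 reads were 0.251% to 0.338% of ND5 reads in TG crush, 0.239% to 0.410% in TG naive, 0.239% to 0.611% in wt crush and 0.271% to 0.358% in wt naive libraries. The highest ratio came from 1 library, wt crush 206, and the other wt crush libraries lay between 0.239% and 0.319%.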
